A study of Mus musculus with 4 samples.

Results

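The amino acid transporters described here are the genes whose symbol in the platform annotation starts with Slc1a, Slc3a, Slc6a, Slc7a, Slc36a, Slc38a or Slc43a, with Slc7a11 left out. This rule took 62 of the 18194 gene symbols measured, of which 59 are transporters or transporter subunits and 3 are transcripts from the strand opposite a transporter gene. The rule reads symbols alone, and 1 probe set stood for each gene, the one whose mean over all arrays was highest. Expression had been measured on Affymetrix arrays, on which short probes are grouped into probe sets and 1 value is given per probe set, in C57BL/6 mouse dendritic cells derived in culture from bone marrow. The SAHA-treated cells (2 arrays, SAHA replicates 1 and 2) had been given SAHA for 12 hours at a dose written in the labels as 500 nm. The other cells (2 arrays, control replicates 1 and 2) had been given diluent for the same time. SAHA, or vorinostat, is an inhibitor of histone deacetylases, the enzymes that strip acetyl groups from histones. In both groups no mutation is stated, marrow of at least 3 mice went into each experiment, and the cells had spent 7 days in GM-CSF and IL-4 (10 ng/ml each) before selection for CD11c to a stated purity of 95%. The arrays are labelled as biological replicates, but no label says that each had its own pool of marrow, and every p-value here therefore covers only the spread among these 4 arrays, which may be technical.

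Amino acids do not cross the plasma membrane unaided, and mammalian cells carry several families of solute carriers for them. Sodium-driven carriers of the Slc1, Slc6 and Slc38 families accumulate acidic, neutral and GABA-like substrates. Some Slc36 carriers use the proton gradient, and Slc7 light chains exchange 1 amino acid for another. Many Slc7 light chains reach the membrane only when bound to a heavy chain, Slc3a2 (CD98) or Slc3a1. In myeloid cells arginine uptake feeds nitric oxide synthase and arginase, and leucine and arginine supply is read by the kinase mTORC1 at the lysosome. The comparison of SAHA with diluent was made to obtain the overall expression profile of the treated cells, and it is read here for the transporters by substrate and by their level in the control cells.

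Most transporters gave lower values in the SAHA-treated cells, but the differences were small and 1 passed the test. Slc7a8 fell, and none rose, at a limma adjusted p under 0.05 (Benjamini-Hochberg over 18194 genes). That is 1.69% of the transporters called, against 2.23% of all genes, and 1 called lower (1.69%, against 0.709% of all genes) with 0 called higher (against 1.52% of all genes). An unadjusted p under 0.05 was reached by 14 of 59 transporters (23.7%), against 18.1% of all genes. The log2 change (SAHA minus control) was below 0 for 47 of 59 transporters (79.7%), against 58.8% of all genes. Both SAHA arrays lay under both control arrays for 25 transporters (42.4%), against 29.6% of all genes, and above them for 4 (6.78%), against 21.1% of all genes. The median log2 change was -0.17 over the transporters and -0.048 over all genes. Only Slc43a3, Slc6a4 and Slc6a12 differed at least 2-fold. With 1 array left out the number called was 0 for either SAHA array, 4 for control replicate 1 and 1 for control replicate 2.

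The arrays had close distributions, with medians of 5.34 to 5.35 log2 units, 25th percentiles of 3.94 to 4.04 and 75th percentiles of 7.74 to 7.93. All 4 values lay above their array's 25th percentile for 49 transporters and under it for 7, with some on either side for 3. For 1 gene the smallest p that an exact two-sided permutation of 2 against 2 arrays allows is 0.333. The labelled cell type was checked against its markers: Itgax, the gene of CD11c, read 13.16 and 12.46 in SAHA arrays and 13.40 and 12.44 in control arrays, and the 7 dendritic cell markers summed on the linear scale to 45874 to 46022 in SAHA arrays and 47301 to 50234 in control arrays. Their median log2 change was -0.029 and none was called, against 2.23% of all genes. Ciita, the activator of MHC class II genes, was at 1.09 (limma adjusted p = 0.0759) and the chemokine receptor Ccr7 at -0.49 (0.118). Neutrophil markers moved with the treatment, since 7 of 7 were lower in both SAHA arrays, against 29.6% of all genes, and 5 fell by the test, against 0.709% of all genes. Their linear sum was 1436 in both SAHA arrays and 2945 to 3104 in control arrays, and none of the 7 lay under the 25th percentile on all arrays. Of the 5 macrophage markers measured 3 were lower in both SAHA arrays (60%, against 29.6% of all genes). None was called, against 2.23% of all genes. Their median log2 change was -0.16, with the efferocytosis receptor Mertk lowest at -0.92 (limma adjusted p = 0.0509). Their linear sums were 15262 to 21277 in SAHA arrays and 17278 to 23230 in control arrays. In these bulk samples fewer cells of a type and less RNA per cell cannot be told apart, and the part of these markers in the transporter values was not tested.

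The carriers of large neutral amino acids, such as leucine and phenylalanine, were lower in SAHA-treated cells in 4 of 4 cases without overlap of the groups, against 29.6% of all genes, with a median log2 change of -0.63. Slc7a8 encodes LAT2, a light chain that exchanges neutral amino acids and is joined to Slc3a2. It read 9.18 and 9.25 log2 units in SAHA arrays and 10.01 and 10.34 in control arrays. Both SAHA values lay 0.76 or more under the lower control value. Slc7a8 averaged 9.21 ± 0.051 in SAHA-treated cells and 10.17 ± 0.24 in control cells (SD, n = 2 each), a log2 change of -0.96 ± 0.16 (SE; 95% interval -1.35 to -0.57). It fell to 0.513 of the control level on the linear scale, with a limma adjusted p of 0.0422. The call did not hold in each fit without 1 array. The limma adjusted p was 0.232 without SAHA replicate 1, 0.133 without SAHA replicate 2 and 0.0887 without control replicate 2, with log2 changes of -0.93, -0.999 and -0.80. Without control replicate 1 the adjusted p was 0.0270 and the log2 change -1.13.

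Slc7a5 encodes LAT1, the light chain that supplies leucine to activated lymphocytes. It read 6.07 and 6.10 in SAHA arrays and 6.80 and 6.70 in control arrays, a log2 change of -0.66 ± 0.15 (SE; limma adjusted p = 0.0856). The arrays of each group lay close together, and the groups were 0.596 apart at their nearest. Slc43a1 encodes LAT3, a facilitative carrier that needs no heavy chain. It read 4.93 and 5.05 in SAHA arrays and 5.31 and 5.88 in control arrays, with a log2 change of -0.61 ± 0.21 and a limma adjusted p of 0.204. Here the control arrays differed from each other by about as much as the groups did, and without control replicate 1 the log2 change was -0.89 with an adjusted p of 0.0473. Without control replicate 2 it was -0.32, with a limma adjusted p of 0.470, and without either SAHA array it was not called, at -0.55 and -0.66. Slc43a2, the related facilitative carrier LAT4, read 10.32 and 10.35 in SAHA arrays and 10.88 and 10.52 in control arrays, a log2 change of -0.37 ± 0.16. Its other 2 probe sets gave log2 changes of -0.85 and -0.63, so the probe set in use gave the smallest difference of the 3.

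**Figure D1:**
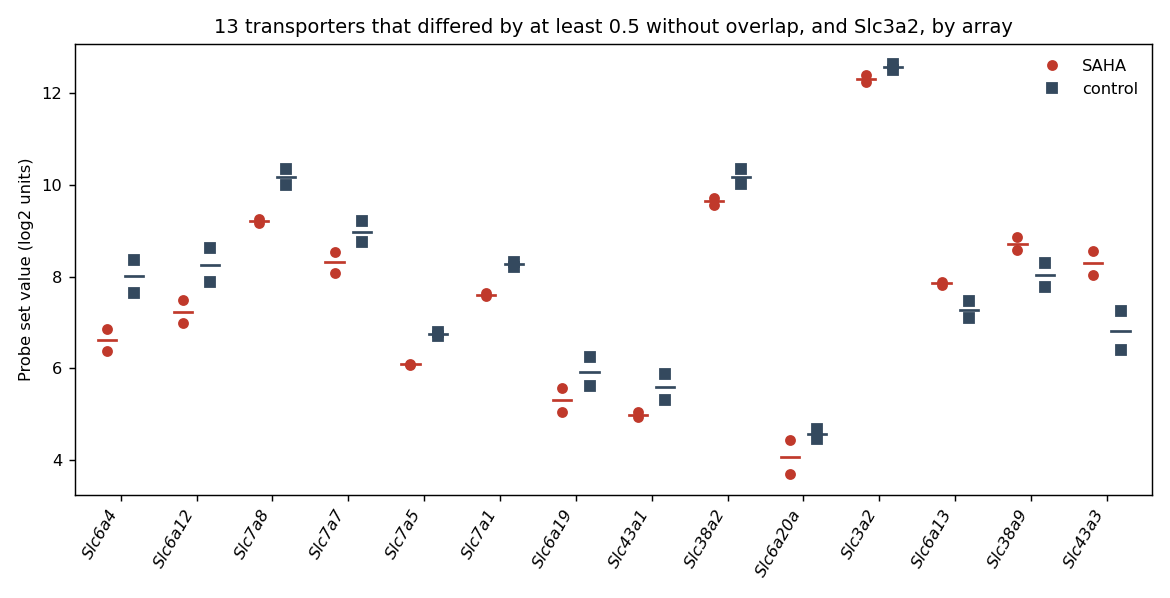
Probe set values in log2 units (vertical axis) of the 13 transporters whose groups did not overlap and whose log2 change was at least 0.5 in size, with Slc3a2, ordered by change from Slc6a4 at -1.39 to Slc43a3 at 1.49. Circles are the 2 SAHA arrays, squares the 2 control arrays and short lines the group means. Slc7a5, Slc7a1 and Slc7a8 show closely placed SAHA arrays, whereas Slc43a3 and Slc6a12 show the widest spread between control arrays.

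The heavy chains gave smaller differences than the light chains Slc7a8, Slc7a5 and Slc7a7, which were not tested against each other. The difference of Slc3a2 was larger in size than those of the light chains Slc7a6, at 0.16, and Slc7a10, at -0.12. Slc3a2, which chaperones LAT1, LAT2 and the y+L light chains to the surface, read 12.41 and 12.24 in SAHA arrays and 12.63 and 12.52 in control arrays. The SAHA arrays were lower by 0.11 at the nearest pair, and the log2 change was -0.25 ± 0.12 (SE; limma adjusted p = 0.328). Slc3a1, the heavy chain of the cystine carrier of kidney and gut, had a log2 change of 0.10 ± 0.11 near the 25th percentile, at 4.34 and 4.35 in SAHA arrays and 4.18 and 4.31 in control arrays.

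Among the 7 cationic carriers and their y+L and b0,+ relatives the median log2 change was -0.30, and 4 were lower in both SAHA arrays (57.1%, against 29.6% of all genes). Slc7a1 encodes CAT1, the widely expressed arginine and lysine carrier. It read 7.57 and 7.64 in SAHA arrays and 8.21 and 8.32 in control arrays, a log2 change of -0.66 ± 0.15 (SE; limma adjusted p = 0.0840). The gap of 0.58 between the groups was several times the distance between the arrays of either. Slc7a7 encodes y+LAT1, which releases cationic amino acids in exchange for neutral ones and is the gene of lysinuric protein intolerance in humans. It read 8.08 and 8.55 in SAHA arrays and 8.76 and 9.21 in control arrays (log2 change -0.67 ± 0.23, limma adjusted p = 0.1998), and its second probe set gave -0.69. Slc7a2 encodes CAT2, the arginine carrier known from activated macrophages. Its values were 11.01 and 10.34 in SAHA arrays and 10.98 and 11.29 in control arrays, so SAHA replicate 1 lay within the control range and replicate 2 well under it. The log2 change of Slc7a2 was -0.46 ± 0.24, or -0.80 without SAHA replicate 1 and -0.12 without SAHA replicate 2, and its 3 further probe sets, which gave -0.57, -0.48 and -0.88, did not overlap. Slc7a6, the y+LAT2 light chain, went the other way at 0.16 ± 0.22 with overlapping groups, and 0.50 on its second probe set. Slc7a3, the CAT3 carrier best known from brain, had a log2 change of -0.25 ± 0.17.

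Slc7a8 and Slc43a1 from the large neutral class, and Slc7a7 and Slc1a4 from the exchangers, had RefSeq promoters, from 250 bases before to 50 after the start, on GRCm38.p6. They are shown because all 4 were lower in both SAHA arrays, and because some promoters of the set hold a response element known from amino acid starvation. They are examples, so the share of these 4 with a match is not a result. The motifs searched on both strands were TGATGNAAN, the C/EBP-ATF response element bound by ATF4, and CACGTG, the E-box bound by MYC, MITF and TFEB. The motifs can share no more than their end bases, and matches are in capitals. Slc7a8 (chr14:54781837-54782136, minus strand) held neither, Slc43a1 (chr2:84840073-84840372, plus strand) an E-box 64 bases before the start, a Slc7a7 promoter (chr14:54417895-54418194, minus strand) 2 response elements, and Slc1a4 (chr11:20332664-20332963, minus strand) 1 response element, read on the reverse strand, 5 bases before the start.
Slc7a8: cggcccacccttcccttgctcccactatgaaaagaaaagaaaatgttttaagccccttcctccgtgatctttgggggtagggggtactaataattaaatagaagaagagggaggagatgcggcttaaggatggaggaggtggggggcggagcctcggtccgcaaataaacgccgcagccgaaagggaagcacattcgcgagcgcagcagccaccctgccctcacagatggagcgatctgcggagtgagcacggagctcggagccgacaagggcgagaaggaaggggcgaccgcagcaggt
Slc43a1: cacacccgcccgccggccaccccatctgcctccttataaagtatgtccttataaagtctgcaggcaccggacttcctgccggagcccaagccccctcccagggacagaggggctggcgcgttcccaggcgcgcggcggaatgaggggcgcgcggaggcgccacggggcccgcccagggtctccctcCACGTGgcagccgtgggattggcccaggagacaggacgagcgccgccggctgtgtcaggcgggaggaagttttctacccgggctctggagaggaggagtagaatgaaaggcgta
Slc7a7: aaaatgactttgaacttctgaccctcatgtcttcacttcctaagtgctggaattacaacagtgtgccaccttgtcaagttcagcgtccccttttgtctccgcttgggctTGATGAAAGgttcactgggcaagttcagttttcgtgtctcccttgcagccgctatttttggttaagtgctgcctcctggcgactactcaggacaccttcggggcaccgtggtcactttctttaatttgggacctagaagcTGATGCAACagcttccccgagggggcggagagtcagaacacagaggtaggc
Slc1a4: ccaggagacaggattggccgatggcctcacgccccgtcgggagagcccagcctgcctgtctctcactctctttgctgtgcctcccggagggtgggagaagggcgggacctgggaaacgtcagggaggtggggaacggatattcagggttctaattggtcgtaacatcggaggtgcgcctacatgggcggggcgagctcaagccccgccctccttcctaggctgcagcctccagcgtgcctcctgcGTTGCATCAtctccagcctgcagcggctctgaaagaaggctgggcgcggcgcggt
Promoters were matched for 42 of the 59 transporters, 63 promoters in all. TGATGNAAN stood in 4 of the 63 (6.35%), against 3.95% of all 32851 promoters of the same length, and CACGTG in 9 (14.3%), against 7.15%. The 4 were 2 overlapping Slc7a7 windows, which share 1 of their elements, and those of Slc1a4 and of Slc6a21, whose substrate is not known. By gene that is 3 of 42 (7.14%), against 4.50% of all genes in the table, and for the E-box 9 of 42 (21.4%), against 8.09%. The log2 change was below 0 for 3 of the 3 response element genes, 7 of the 9 E-box genes, at -0.61 to 0.099, and 34 of the 42 matched transporters. The further Slc7a7 windows held no match. Neither motif stood in the promoters of Slc6a4, Slc6a12, Slc7a1, Slc38a2, Slc6a19 or Slc6a20a, which were also lower in both SAHA arrays, by at least 0.5 on the log2 scale. A match is a description of these letters, and no binding was measured.

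The 4 small neutral exchangers had a median log2 change of -0.19, and 4 of 4 were below 0. Slc1a4, the ASCT1 carrier of alanine, serine and cysteine, read 5.78 and 5.83 in SAHA arrays and 6.22 and 6.39 in control arrays. Its log2 change was -0.50 ± 0.15 (SE; limma adjusted p = 0.162), a second probe set gave -0.48, and the last gave -0.035 with overlapping groups. Slc1a5, the ASCT2 carrier through which many cells take up glutamine, read 8.34 and 7.996 in SAHA arrays and 8.77 and 8.07 in control arrays, which overlapped. Its log2 change was -0.25 ± 0.26, and it was 0.096 without control replicate 1. Slc7a10, the light chain asc-1, had a log2 change of -0.12 ± 0.13.

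The 6 acidic carriers had a median log2 change of -0.21 and control means in the middle range of the arrays, and 4 were lower in both SAHA arrays (66.7%, against 29.6% of all genes). Glutamate carriers of the Slc1 family are best known from brain and retina, where they clear glutamate from synapses. Slc7a13, a kidney aspartate and glutamate exchanger, gave -0.30 ± 0.11, Slc1a7 -0.29 ± 0.19, Slc1a1 -0.24 ± 0.13 and Slc1a6 -0.17 ± 0.11 (log2 change, SE). Slc1a2 and Slc1a3, the main glial glutamate carriers, overlapped at -0.093 and 0.015. The further probe sets of Slc1a2 gave -0.23 and -0.23 without overlap, and -0.24 and -0.057 with overlapping groups. Slc7a13, Slc1a1 and Slc1a6 lay just above the 25th percentile on all 4 arrays.

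The 7 sodium-coupled neutral (SNAT) carriers of the Slc38 family were split, with a median log2 change of -0.0085. Slc38a2, or SNAT2, is the system A carrier that cells induce when amino acids run short. It read 9.57 and 9.73 in SAHA arrays and 10.34 and 10.03 in control arrays, with a log2 change of -0.54 ± 0.16 (SE; limma adjusted p = 0.160). The groups were 0.30 apart at their nearest, and the other 2 probe sets gave -0.64 and -0.30, both without overlap. Slc38a1, the glutamine carrier SNAT1, read 9.43 and 9.11 in SAHA arrays and 9.35 and 8.59 in control arrays. Those groups overlapped at a log2 change of 0.30 ± 0.27, while the second probe set of Slc38a1 gave 0.52 without overlap. Slc38a3, a system N glutamine carrier, and Slc38a7, which moves glutamine out of lysosomes, gave -0.083 ± 0.16 and 0.099 ± 0.22. Slc38a10 gave 0.15 ± 0.18, and its 7 probe sets ran from -0.28 to 0.21 with both signs.

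Slc38a9 was set in a class of its own, as the lysosomal arginine sensor that signals to mTORC1 through the Rag GTPases. It read 8.87 and 8.575 in SAHA arrays and 8.30 and 7.76 in control arrays. Both SAHA arrays were above both control arrays by 0.27 or more, and the log2 change was 0.69 ± 0.22 (SE; 95% interval 0.16 to 1.23), or 1.61-fold, with a limma adjusted p of 0.183. Without control replicate 2 it was 0.42, and in the other fits with an array left out 0.54 to 0.96, with no call. All 7 of its probe sets were higher in both SAHA arrays, at log2 changes of 0.35 to 0.72. These probe sets read the same RNA samples and are not replicates.

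**Figure D2:**
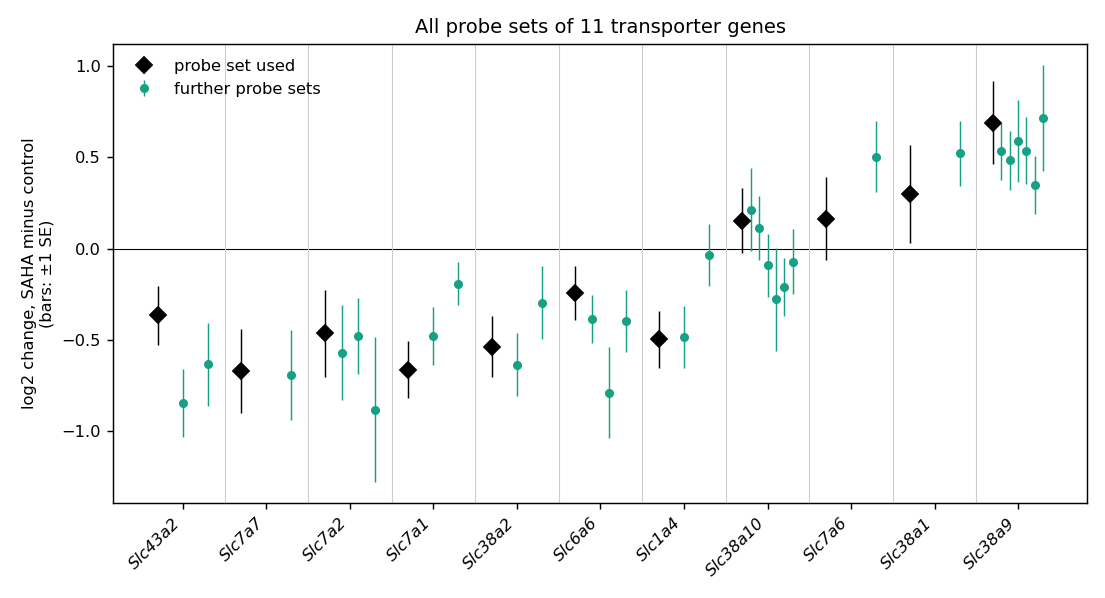
Log2 change (SAHA minus control, vertical axis, bars ±1 SE) of every probe set of 11 transporter genes. Diamonds mark the probe set used and circles the further ones. The 7 probe sets of Slc38a9 lie between 0.35 and 0.72, whereas those of Slc38a10 lie on both sides of 0.

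Across the set, 29 transporters had 1 probe set and 30 had several. Of the 60 further probe sets, 44 had all 4 values above the 25th percentile of their array, and 37 of these had the same sign of change as the probe set in use. For the 13 transporters whose groups did not overlap and whose log2 change was at least 0.5 in size, 10 of 10 such probe sets had the same sign. These belonged to Slc38a9, Slc38a2, Slc7a1 and Slc7a7 alone. Apart from Slc6a19, whose further probe set had values under the 25th percentile, the rest of the 13 had 1 probe set each. The 13 were picked on these same arrays, so this is not an independent check of their changes.

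The 4 proton-coupled carriers of the Slc36 family had a median log2 change of -0.27. Slc36a4, a high-affinity proline and tryptophan carrier, read 10.10 and 10.05 in SAHA arrays and 10.61 and 10.30 in control arrays. The groups did not overlap, at a log2 change of -0.38 ± 0.15 (SE; limma adjusted p = 0.267). Slc36a2 read 7.68 and 6.84 in SAHA arrays and 8.44 and 7.25 in control arrays, so the arrays of a group differed by more than the groups. Its log2 change was -0.59 ± 0.43, and it was 0.0058 without control replicate 1 and -1.19 without control replicate 2. Replicate 2 was the lower array in both groups, so leaving out 1 control array also unbalances the replicate numbers. Between arrays of the same number the log2 changes of Slc36a2 were -0.77 (replicate 1) and -0.41 (replicate 2). The labels do not tie these numbers to a shared culture. Slc36a1, a carrier of the lysosome that also acts in mTORC1 signalling, gave 0.013 ± 0.20, and Slc36a3 gave -0.17 ± 0.16.

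**Figure D3:**
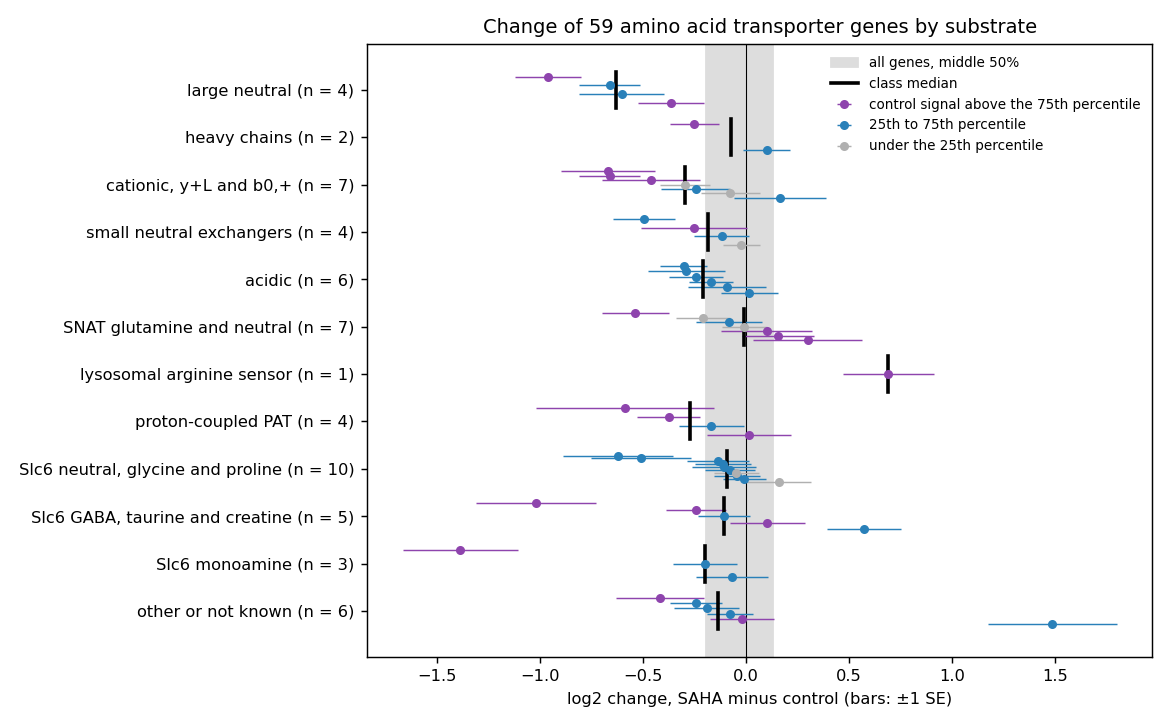
Log2 change (SAHA minus control, horizontal axis, bars ±1 SE) of the 59 transporters by substrate class (rows). Black ticks are class medians, the grey band holds the middle 50% of all genes, from -0.19 to 0.13, and colours give the control level. The large neutral carriers lie outside the band to the left, at a median of -0.63.

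The Slc6 family held the transporters with the lowest values relative to control. Slc6a4, the plasma membrane serotonin carrier, read 6.38 and 6.85 in SAHA arrays and 7.65 and 8.36 in control arrays. Both SAHA arrays lay at least 0.80 under the control arrays, and the log2 change was -1.39 ± 0.28 (SE; 95% interval -2.06 to -0.72). The control level was 2.62 times the SAHA level, but the limma adjusted p was 0.0652. Without control replicate 1 the log2 change of Slc6a4 was -1.74, with a limma adjusted p of 0.0181, and in the 3 other such fits it lay between -1.63 and -1.03 and was not called (adjusted p of 0.0894 to 0.317). Slc6a4 is also expressed by mast cells, basophils and platelets. Of the 4 mast cell and basophil markers 3 lay under the 25th percentile on all arrays, and these 3 overlapped between the groups. The remaining marker, Cpa3, read 3.99 and 4.05 in SAHA arrays and 4.32 and 4.19 in control arrays. The linear sum of the 4 was 55.4 to 58.1 in SAHA arrays and 59.6 to 62.9 in control arrays. No platelet marker was read, and the part of such cells in the Slc6a4 values was not tested. The 3 monoamine carriers had a median of -0.20. The other members of that class, Slc6a2 for noradrenaline and Slc6a3 for dopamine, gave log2 changes of -0.20 ± 0.16 and -0.069 ± 0.17.

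The 5 carriers of GABA, taurine and creatine had a median log2 change of -0.11 and stood on both sides of 0. Slc6a12, the betaine and GABA carrier BGT1 that responds to osmotic stress, read 7.49 and 6.98 in SAHA arrays and 8.63 and 7.88 in control arrays. The groups did not overlap, and the log2 change was -1.02 ± 0.29 (SE; limma adjusted p = 0.143). Without control replicate 2 the limma adjusted p was 0.0416, at a log2 change of -1.40, and in the 3 other fits with an array left out it was not called, at -1.28, -0.77 and, without control replicate 1, -0.64. Slc6a13, the related GABA and taurine carrier GAT2, read 7.82 and 7.88 in SAHA arrays and 7.46 and 7.09 in control arrays. It was higher in both SAHA arrays, at 0.57 ± 0.18 with a limma adjusted p of 0.171. These genes are neighbours on chromosome 6 in RefSeq, so adjacent genes of 1 family had opposite signs of change. Signs also differed for Slc38a1 and Slc38a2 on chromosome 15, where the groups of Slc38a1 overlapped on the probe set in use. They differed for Slc36a1 and Slc36a2 on chromosome 11, where both overlapped and Slc36a1 lay near 0, at 0.013 ± 0.20. Opposite signs were found in 3 of the 8 pairs of neighbouring transporters, and only Slc6a12 and Slc6a13 showed them without overlap in both genes. The share among neighbouring pairs of all genes was not counted. Slc6a6, the taurine carrier, read 11.90 and 11.67 in SAHA arrays and 12.16 and 11.90 in control arrays. It overlapped narrowly at -0.24 ± 0.15, and its 3 further probe sets gave -0.38, -0.79 and -0.40 without overlap. Slc6a8, the creatine carrier, gave 0.10 ± 0.18, and Slc6a11, a GABA carrier of glia, gave -0.11 ± 0.12.

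Among the 10 Slc6 carriers of neutral amino acids, glycine and proline the median log2 change was -0.092. Slc6a19, the B0AT1 carrier of kidney and gut, read 5.04 and 5.56 in SAHA arrays and 5.601 and 6.24 in control arrays. Its groups were 0.044 apart at their nearest, with a log2 change of -0.62 ± 0.27 (SE; limma adjusted p = 0.290), which ran from -0.94 to -0.30 with an array left out. The second probe set of Slc6a19 gave -0.0079 with overlapping groups, and 2 of its 4 values lay under the 25th percentile. Slc6a20a, a proline carrier, read 3.69 and 4.42 in SAHA arrays and 4.68 and 4.45 in control arrays, and SAHA replicate 1 lay under its array's 25th percentile. The log2 change of Slc6a20a was -0.51 ± 0.24 (limma adjusted p = 0.334), and the nearest arrays of the groups were 0.026 apart. Without SAHA replicate 1 the log2 change was -0.14. Slc6a9, the glycine carrier GlyT1, gave -0.14 ± 0.15, Slc6a7, a brain proline carrier, -0.11 ± 0.14, Slc6a17, a synaptic vesicle carrier, -0.11 ± 0.15, and Slc6a18, a kidney carrier, -0.077 ± 0.12.

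The largest value above 0 belonged to Slc43a3, which shares its family with LAT3 and LAT4 but is known to carry purine nucleobases. It read 8.57 and 8.05 in SAHA arrays and 7.24 and 6.40 in control arrays. Both SAHA arrays were 0.80 or more above the control arrays, and the log2 change was 1.49 ± 0.31 (SE; 95% interval 0.73 to 2.24), or 2.80-fold, with a limma adjusted p of 0.0732. Without control replicate 1 it was 1.91, with a limma adjusted p of 0.0152, whereas in the 3 other fits with an array left out it was 1.06 to 1.75 and was not called (adjusted p of 0.0930 to 0.335). Slc38a6, whose substrate is debated, read 9.28 and 9.15 in SAHA arrays and 9.94 and 9.34 in control arrays, a log2 change of -0.42 ± 0.22, which was -0.12 without control replicate 1 and -0.72 without control replicate 2. The second probe set of Slc38a6 gave 0.076 with overlapping groups. The other members without a settled amino acid substrate were Slc7a15 at -0.24 ± 0.13, Slc6a21 at -0.19 ± 0.16, Slc6a16 at -0.079 ± 0.11 and Slc7a4 at -0.020 ± 0.16. The further probe sets of Slc7a4 gave 0.42, higher in both SAHA arrays, and -0.068 with overlapping groups. The 9 transporters not named singly had log2 changes of -0.30 to 0.16 and a highest value of 4.15 log2 units, and 8 of the 9 overlapped. The opposite-strand transcripts Slc36a1os, Slc6a19os and Slc7a6os gave log2 changes of -0.31, -0.18 and -0.29.

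By control level, the median change lay furthest below 0 among transporters with high control signal. Of the 21 whose control mean was above the 75th percentile, 10 were lower in both SAHA arrays (47.6%), against 26.9% of all genes at that level, and 1, Slc38a9, was higher (4.76%), against 29.8%. Their median log2 change was -0.37, against 0.020 for all genes at that level. Of the 31 between the 25th and 75th percentiles, 14 were lower (45.2%) and 3 higher (9.68%) in both SAHA arrays, against 32.7% and 17.7% of all genes at that level, with a median of -0.12, against -0.085 for all genes there. The 7 under the 25th percentile had a median of -0.048, against -0.045 for all genes there. The share of transporters with a change below 0 ran the other way. It was 71.4% of the 21, 83.9% of the 31 and 85.7% of the 7, against 47.4%, 65.7% and 64.7% of all genes at those levels. The control values enter both the level and the change. Grouped by the mean over all 4 arrays, 18 transporters lay above the 75th percentile, with a median of -0.25, against 0.041 for all genes. The position of a probe set among levels depends on its probes, and levels of different transporters were not compared.

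**Figure D4:**
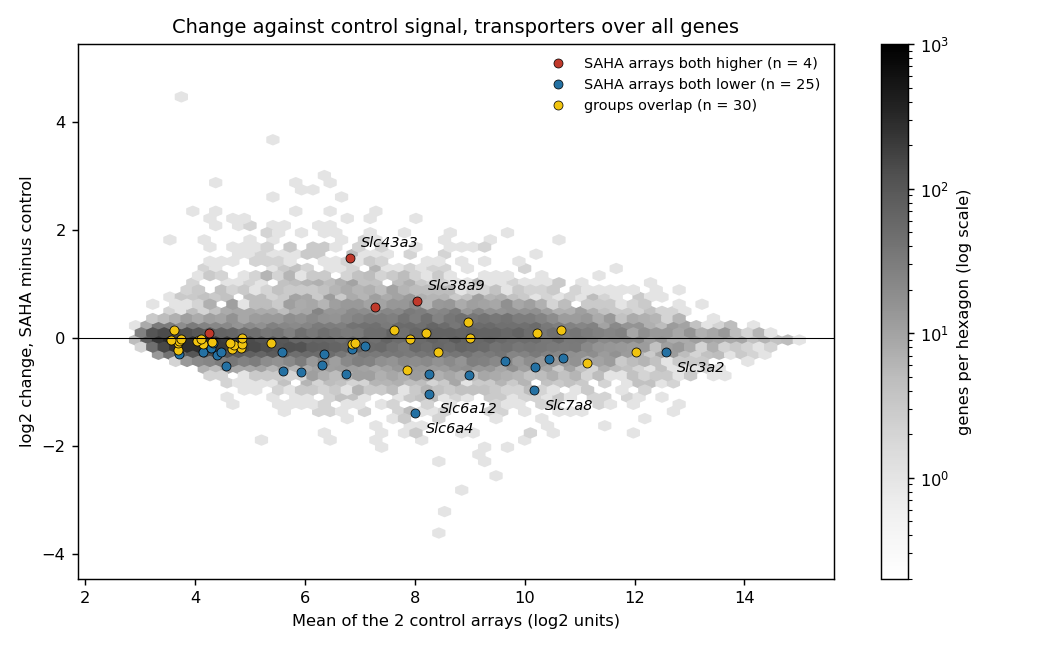
Log2 change (SAHA minus control, vertical axis) against the mean of the control arrays (log2 units, horizontal axis). Hexagons shade the number of genes on a log scale, and points are the 59 transporters, coloured by whether both SAHA arrays were higher (4), both lower (25) or overlapping (30). Of the 21 transporters above the 75th percentile of control signal 15 lie under the zero line (71.4%, against 47.4% of all genes at that level). Slc38a9 is the highest of the 21.

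Genes that act beside these carriers were read from 4 further lists. Of 14 other amino acid carriers 1 was called (7.14%, against 2.23% of all genes), Slc16a10, which encodes the aromatic amino acid carrier TAT1. Slc16a10 read 8.497 and 8.63 in SAHA arrays and 9.43 and 9.61 in control arrays, and fell by 0.95 on the log2 scale (SE 0.15, limma adjusted p = 0.0389). Of 26 measured genes of amino acid sensing by mTORC1, 1 rose and none fell by the test (3.85%, close to the 2.23% of all genes). This was Rragd, a Rag GTPase of the pathway in which Slc38a9 acts, at 6.92 and 7.00 in SAHA arrays and 5.46 and 5.08 in control arrays (log2 change 1.69 ± 0.18, limma adjusted p = 0.0148). Of the 15 genes of the starvation response through GCN2 and ATF4 none was called by limma, against 2.23% of all genes. An unadjusted limma p under 0.05 was reached by 4 of the 15, against 18.1% of all genes. The largest changes there had opposite signs, Nupr1, a stress-response chromatin protein, at 0.79 ± 0.34 and Atf5, a transcription factor, at -0.78 ± 0.18. Of 13 measured enzymes of amino acid synthesis and use, 1 rose and 1 fell (15.4% called, against 2.23% of all genes). Got2, the mitochondrial aspartate aminotransferase, rose by 1.05 ± 0.15 (limma adjusted p = 0.0316), and Oat, ornithine aminotransferase, fell to 8.99 and 9.08 in SAHA arrays, against 10.35 and 10.25 in control arrays (log2 change -1.26 ± 0.14, limma adjusted p = 0.0148). These calls were lost without either SAHA replicate, at limma adjusted p of 0.232 and 0.114 for Slc16a10, 0.0876 and 0.0606 for Rragd, 0.173 and 0.0574 for Got2, and 0.108 and 0.0614 for Oat (without SAHA replicate 1 and 2 in turn). Slc16a10 was also lost without control replicate 2, at 0.0791. With all probe sets of a gene averaged the log2 change was -0.31 for Slc16a10, 0.41 for Rragd and 0.58 for Got2, and none of these was called (limma adjusted p of 0.272, 0.142 and 0.162).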

How the data were processed

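Labelled cRNA made from 6 µg of total RNA was hybridised to 4 Affymetrix arrays, per the labels' protocols. The authors deposited log2 values per probe set. That the scale is log2 was read from the values, which ran from 2.59 to 15.0. The submitters' processing notes name R 2.7. The probe summary and the normalization are not given in the sources used here, and the deposited scaling was kept. Of 45101 probe sets, 34958 carried 1 gene symbol in the platform annotation, which can be old, 932 carried several and 9211 none, and only those with 1 symbol were used. Slc1a2 also appears on 1 probe set with several symbols, which was left out. Groups came from the sample titles. The test was limma (version 3.58.1, R 4.3.3; lmFit, then eBayes with a trend on intensity), two-sided, over 18194 genes without a filter, with Benjamini-Hochberg adjustment and a threshold of 0.05, and it was tested on simulated data. SDs are over 2 arrays, and SEs are limma's moderated ones. Arrays give no read depth, and their number limits the precision.

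Values per array are given for transporters past the threshold, and for those whose groups did not overlap with a change of at least 0.5 on the log2 scale. They are also given for the heavy chains and, as description, for further transporters of each class. Of the companion lists, called genes are named, or the 2 largest changes where none was called. Atf4 and Eif2ak4 are named too, since their list is named after them. The members, classes and lists were chosen with earlier results of these data known, so no p is given over a list. Other settings tried were eBayes with no trend or with robust spread, median centring or quantile normalization, a floor at the 20th percentile or an offset of 32 on the linear scale, a filter at the median level, other choices of probe set, the replicate number as a term, a threshold of 0.1, and each array left out. RefSeq promoters (GRCm38.p6) were used for sequence only.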

Additional observations from a re-analysis of the deposited data

How the results depend on the processing

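The single transporter call (Slc7a8) depended on the settings. Transporters called numbered 0 with each probe set tested on its own. There 15 of the 59 probe sets in use reached an unadjusted limma p under 0.05, and the further probe sets were not counted. None was called with a floor at the 20th percentile (limma, 10 at an unadjusted p under 0.05), among genes above the median level alone (9) or with all probe sets of a gene averaged (16). In the reported fit 14 reached an unadjusted limma p under 0.05. They numbered 5 at an adjusted p under 0.1. With each array left out in turn they numbered 0 to 4, with 4 without control replicate 1 (Slc43a1, Slc43a3, Slc6a4 and Slc7a8) and only Slc6a12 without control replicate 2. The adjusted p of Slc7a8 ran from 0.0270 to 0.232 over those fits and was 0.185 with the floor, where the call was lost. All genes called numbered 0 with the floor (limma, 3034 at an unadjusted p under 0.05), 226 above the median level, 910 at 0.1 and 31 to 529 with an array left out, and the cause of these shifts was not tested. With the replicate number as a term (replicate block) 19 transporters, Slc36a2 among them, and 3616 genes were called. The labels do not tie the numbers to a shared culture, and the deviations of same-numbered arrays correlated at 0.567 over genes, so the block is given as a hint only. The median transporter change was -0.12 with the floor and -0.13 with the mean of probe sets, and ran from -0.18 to -0.11 with an array left out. Changes near 0 turned sign: Slc1a3 was -0.048 with probe sets without a suffix first, Slc36a1 -0.031 under quantile normalization, and Slc38a10 -0.025 and Slc7a4 0.11 with the mean of probe sets. With an array left out the log2 change ran from -0.26 to 0.078 for Slc1a2, -0.071 to 0.10 for Slc1a3, -0.60 to 0.096 for Slc1a5, -0.21 to 0.24 for Slc36a1, -1.19 to 0.0058 for Slc36a2, -0.082 to 0.68 for Slc38a1, -0.024 to 0.33 for Slc38a10, -0.19 to 0.023 for Slc38a3, -0.14 to 0.34 for Slc38a7, -0.31 to 0.17 for Slc6a3, -0.11 to 0.31 for Slc6a8, -0.13 to 0.090 for Slc7a4 and -0.086 to 0.41 for Slc7a6. No other transporter named singly turned sign under the alternatives run. A group with 1 array left out takes its spread from the other group. The calls of Slc16a10, Rragd, Got2 and Oat were lost with the floor, at adjusted p of 0.158 to 0.181, and that of Got2 with probe sets without a suffix first, at 0.184.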
